A study of Mus musculus with 11 samples.

Results

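The epidermal growth factor (EGF) family ligands and their ERBB receptors were followed through 10 genes taken by name from the count tables, out of 24421 genes listed there. Of the 10, 7 encode ligands (*Areg*, *Ereg*, *Hbegf*, *Tgfa*, *Btc*, *Epgn* and *Nrg1*) and 3 encode receptors (*Egfr*, *Erbb2* and *Erbb3*). Each gene was described by its read counts in RNA-seq and by the open-chromatin peaks in the gene or within 5 kb of it in ATAC-seq, an assay that cuts accessible DNA with a transposase.

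The study compared keratinocytes at the front of a healing skin wound with keratinocytes of distal unwounded skin, in mice with and without the transcription factor GRHL3 in the epidermis. The mice were labelled C57BL/6, and the study's methods give the background as C57BL/6J. They were male and female and 8 weeks old, and the wounded samples came from 1 mm margins cut around 4 mm punch wounds at day 3. Cells were sorted as epidermal keratinocytes on CD49F, with antibodies to CD45, CD31 and TER119 marking the cells to be left out. The knockout animals (labelled GRHL3 KO, or *Grhl3*-cKO) carried a floxed *Grhl3* deleted by a Krt14-driven Cre, which acts in keratinocytes of the basal layer and their descendants, and the controls (WT) were Krt14-Cre-WT littermates.

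The 7 RNA-seq libraries were 2 from WT unwounded keratinocytes, 2 from WT wounded keratinocytes, 1 from unwounded and 2 from wounded keratinocytes with the knockout label, called cKO-labelled here. Levels are given as CPM, the counts of a gene per 1000000 counts on all genes of its library. Those totals were 15488699 and 16807451 in WT unwounded, 16653948 and 15418631 in WT wounded, 13497283 in the cKO-labelled unwounded library, and 15223569 and 14279568 in the cKO-labelled wounded libraries. At these depths 3 counts correspond to 0.178 to 0.222 CPM, which covers counting error only. Values of a group are listed in the order of the replicate numbers, and the labels do not say whether replicates are separate animals, so the tests measure the spread between these libraries.

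The genotype is taken from the labels. *Grhl3* stood at 122 and 83.2 CPM in WT unwounded, 110 and 90.0 CPM in WT wounded, 76.2 CPM in the cKO-labelled unwounded library and 116 and 104 CPM in the cKO-labelled wounded libraries. They are counts on the gene as a whole, in which deleted exons are not set apart. Both cKO-labelled wounded libraries lay within the range of those labelled WT, and the cKO-labelled unwounded library was the lowest of all. The study checked the deletion by quantitative PCR between the loxP sites and by staining for GRHL3. Those checks were not used here, and directions between genotypes are given by the labels.

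The unwounded library labelled *Grhl3*-cKO stood apart from the other 6. Its *Xist* count was 14854, against 3 to 32 elsewhere, and its *Ddx3y* count was 0, against 1368 to 1852 elsewhere, so it differs from the others in sex-linked RNA as well as in group. It is also the only library of its group. Each comparison with it assumes that it varies as the other groups do, cannot tell sex and group apart, and has no value without it.

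The EGF family ligands are made as membrane-bound precursors, which proteases of the ADAM family cut free, and each ligand binds a receptor tyrosine kinase of the ERBB family through its EGF-like domain. Binding joins receptors in pairs and starts RAS and MAP kinase signalling, which in the epidermis is known for its part in keratinocyte proliferation, survival and migration, and in the closure of wounds. ERBB2 has no known ligand of its own and ERBB3 has little kinase activity, so both work as partners of other receptors.

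All 10 genes passed the filter on low counts, as did 14045 of the 24421 genes. Levels between genes can be compared only per length, as CPM per kb of annotated exon. On that scale the median level over the 7 libraries was highest for *Epgn* at 174 CPM per kb (lowest 147, highest 224) and next for *Areg* at 81.5 CPM per kb (62.3 to 138), and the ranges of these 2 genes did not overlap each other or any other range. *Erbb3* had a median of 37.5 CPM per kb (35.6 to 44.3), *Hbegf* 37.0 CPM per kb (32.1 to 46.4) and *Erbb2* 35.1 CPM per kb (30.4 to 41.8), levels whose ranges over the libraries overlap, so their order is not set by these data. *Egfr* followed at a median of 24.9 CPM per kb (21.3 to 28.4) and *Tgfa* at 10.2 CPM per kb (5.13 to 14.0). *Ereg*, *Nrg1* and *Btc* were the lowest of the 10, with median levels of 1.99 CPM per kb (1.51 to 3.17), 0.699 CPM per kb (0.301 to 1.97) and 0.213 CPM per kb (0.0872 to 0.685), and the ranges of *Nrg1* and *Btc* overlap those of their neighbours.

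The genes also differed in how far their level moved between libraries. The highest CPM was 1.24 times the lowest for *Erbb3*, 1.33 times for *Egfr* and 1.38 times for *Erbb2*, so the receptors varied least. The same ratio was 1.45 for *Hbegf*, 1.53 for *Epgn*, 2.11 for *Ereg*, 2.21 for *Areg* and 2.72 for *Tgfa*. It reached 6.55 for *Nrg1* and 7.85 for *Btc*, which was read at the lowest counts. Added over the 7 ligands, the level was 671 and 736 CPM in WT unwounded, 771 and 749 CPM in WT wounded, 696 CPM in the cKO-labelled unwounded library and 658 and 587 CPM in the cKO-labelled wounded libraries.

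**Figure D1:**
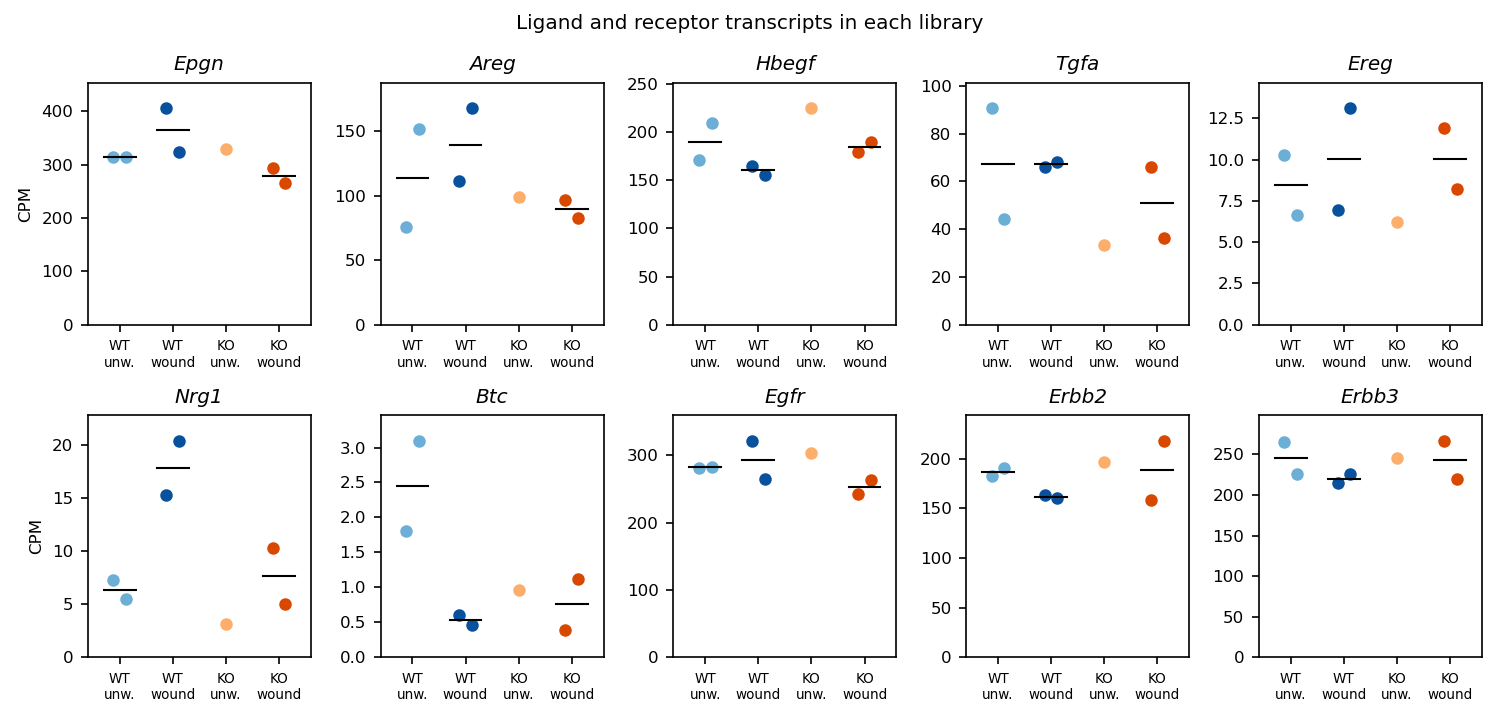
CPM of each of the 10 genes in every RNA-seq library (vertical axis, linear, from 0), by group (horizontal axis); points are libraries, lines are group means and KO stands for the label *Grhl3*-cKO. The points of *Nrg1* lie at 15.3 and 20.4 CPM in WT wounded and between 3.11 and 10.3 CPM in the other 5 libraries, while those of *Egfr* lie between 242 and 321 CPM in all 7.

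Differences between groups were tested with edgeR's quasi-likelihood test on all 14045 genes in a fit of the 7 libraries, two-sided, with Benjamini-Hochberg adjustment, and a gene is said to have changed only at an adjusted p under 0.05. The exact permutation test of 2 libraries against 2 cannot give a p below 0.333, so these tests draw on a spread estimated over many genes together. The comparison of WT wounded with WT unwounded keratinocytes asks what wounding does to the family in control skin. By edgeR 0 of the 10 genes passed there, beside 4 of all genes tested (0.0285%), which were *Mmp9*, *Xist*, *Pmepa1* and *Cald1*, named here after their values were seen. At an unadjusted p under 0.05 the count was 1 of 10, *Nrg1*, beside 4.84% of all genes. Without a single library the log2 fold change lay between 1.28 and 1.74 for *Nrg1* and between -0.082 and 0.90 for *Areg*. By DESeq2 and by edgeR's likelihood ratio test 0 of the 10 passed after adjustment, beside 24 and 49 of all genes.

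The comparison of cKO-labelled wounded with WT wounded keratinocytes asks how the family depends on the genotype at the wound front. By edgeR 0 of the 10 genes passed, beside 0% of all genes, and by DESeq2 and the likelihood ratio test 0 of the 10 passed as well. At an unadjusted p under 0.05 by edgeR, 3 of the 10 were lower with the cKO label, the ligands *Areg*, *Epgn* and *Nrg1*, beside 4.04% of all genes in both directions. By the likelihood ratio test 2 of the 10, *Areg* and *Nrg1*, lay under 0.05, beside 873 of all genes. The same 2 did so with only the 4 libraries compared, beside 511 of all genes. None of the 3 stayed under 0.05 with every library left out in turn. The log2 fold changes then lay between -0.88 and -0.28 for *Areg*, -0.50 and -0.20 for *Epgn* and -1.85 and -0.73 for *Nrg1*. They lay between -0.90 and 0.034 for *Tgfa* and between 0.030 and 0.43 for the receptor *Erbb2*. The comparisons within WT and between the wounded groups share the WT wounded libraries, so a high or low value there enters both with opposite sign.

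A further comparison set the cKO-labelled wounded libraries against the cKO-labelled unwounded library. By edgeR 0 of the 10 genes passed, beside 0.947% of all genes, and 1 of 10 (*Nrg1*) had an unadjusted p under 0.05, beside 9.32%. That unadjusted count was 0 with the replicate block, beside 1499 of all genes, and 2 (*Nrg1* and *Tgfa*) with no filter, beside 1514. When a library was left out the log2 fold change of *Nrg1* lay between 0.63 and 1.755, and that of *Tgfa* between 0.078 and 1.015. When wounding was averaged over the genotypes, 0 of the 10 passed by edgeR, beside 0.890% of all genes, and 1 of 10 (*Nrg1*) had an unadjusted p under 0.05, beside 8.91%. Leaving out a library moved the averaged log2 fold change to between -0.32 and -0.19 for *Hbegf* and between 0.047 and 0.63 for *Tgfa*. Within the cKO label DESeq2 and the likelihood ratio test passed 0 of the 10, beside 252 of all genes by each. In the average they passed 1 of the 10, *Nrg1*, beside 223 and 283 of all genes. For the difference between genotypes in the wound response, 0 of the 10 passed by edgeR, beside 0.185% of all genes, 0 of 10 had an unadjusted p under 0.05, beside 6.77%, and 0 of 10 passed by DESeq2 and the likelihood ratio test. The unadjusted count for this difference was 1 (*Epgn*) with the replicate block, beside 1186 of all genes. When a library was left out the log2 difference lay between -0.61 and -0.31 for *Epgn* and between -1.05 and -0.069 for *Areg*. It lay between -0.020 and 1.04 for *Tgfa*.

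**Figure D2:**
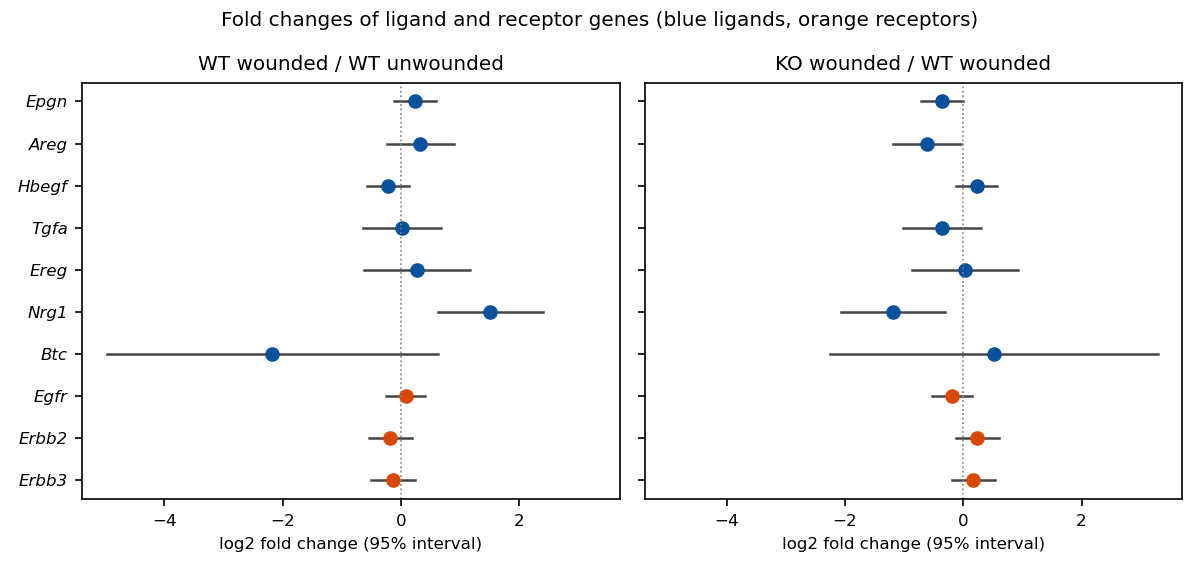
Log2 fold change of each of the 10 genes in WT wounded against WT unwounded and in cKO-labelled wounded libraries (KO) against WT wounded (horizontal axis, log2), with 95% intervals from edgeR and a dotted line at 0. The interval of *Nrg1* lies above 0 in the former (0.62 to 2.41) and below 0 in the latter (-2.07 to -0.30), before adjustment over all genes.

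*Nrg1* encodes neuregulin 1, a ligand of ERBB3 and ERBB4, and had the smallest unadjusted p of the 10 genes in each comparison except that between the wound responses. It was read at 7.23 and 5.47 CPM in WT unwounded (112 and 92 counts), 15.3 and 20.4 CPM in WT wounded (255 and 314 counts), 3.11 CPM in the cKO-labelled unwounded library (42 counts), and 10.3 and 4.97 CPM in the cKO-labelled wounded libraries (157 and 71 counts). Both WT wounded libraries lay above all 5 others, and the cKO-labelled wounded libraries lay on either side of the WT unwounded ones. The group means were 6.35 ± 1.24 CPM in WT unwounded, 17.8 ± 3.57 CPM in WT wounded and 7.64 ± 3.78 CPM in cKO-labelled wounded libraries (SD, *n* = 2 each).

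By edgeR the log2 fold change of *Nrg1* in WT wounded against WT unwounded was 1.51 (standard error 0.42, 95% interval 0.62 to 2.41, unadjusted p = 0.00245, adjusted p = 0.522). It was 1.28 to 1.74 in every alternative tried, with adjusted p between 0.0480 and 0.922, and passed only with no filter on low counts, with an adjusted p of 0.0480. Between the wounded groups the log2 fold change was -1.19 (standard error 0.42, 95% interval -2.07 to -0.30, edgeR, unadjusted p = 0.0118, adjusted p = 1). This value rests in part on single libraries. It was -1.85 without replicate 1 of the cKO-labelled wounded libraries, and without their replicate 2 it was -0.73.

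The *Nrg1* difference between the cKO-labelled wounded libraries and the cKO-labelled unwounded library was 1.30 on the log2 scale (95% interval 0.11 to 2.49, edgeR, adjusted p = 0.461), and 0.63 without wounded replicate 1. Averaged over the genotypes the log2 fold change was 1.41 (standard error 0.35, 95% interval 0.66 to 2.16, edgeR, adjusted p = 0.0847). It passed by DESeq2 (adjusted p = 0.0330), by the likelihood ratio test (0.0194), with no filter (0.00428) and in edgeR without WT wounded replicate 1 (0.0496), within a range over its alternatives of 0.00428 to 0.359. An exact permutation test of the 4 wounded against the 3 unwounded libraries, two-sided, gave p = 0.143 for *Nrg1*, where the smallest p possible is 0.0286. The wound response of *Nrg1* differed between genotypes by -0.22 on the log2 scale, with a 95% interval from -1.66 to 1.23 (edgeR, adjusted p = 0.990), which spans a large difference in either direction. Leaving out WT wounded replicate 2 turned that value to 0.03, and leaving out replicate 2 of the cKO-labelled wounded libraries turned it to 0.24.

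Markers of some cells other than keratinocytes also differed between wounded and unwounded libraries. The 8 endothelial markers, of which *Pecam1* was the most abundant, summed to 1.94 and 3.63 CPM in WT unwounded, 22.9 and 9.92 CPM in WT wounded, 0.815 CPM in the cKO-labelled unwounded library and 9.92 and 9.59 CPM in the cKO-labelled wounded libraries. Their sum, though not each marker, was higher in all 4 wounded libraries than in the 3 unwounded ones. In WT wounded against WT unwounded 0 of the 7 endothelial markers tested passed by edgeR, and 3 were higher at an unadjusted p under 0.05, although the sort used an antibody to CD31, the product of *Pecam1*. By DESeq2 and by the likelihood ratio test 0 of the 7 passed as well. In that comparison the edgeR log2 fold change was positive for 5 of the 7 and negative for 2. Averaged over the genotypes, the comparison in which *Nrg1* passed by DESeq2 and the likelihood ratio test, 2 of the 7 passed by each of these tests and were higher in wounded libraries, while by edgeR 0 passed and 4 were higher at an unadjusted p under 0.05. Within the cKO label 0 passed by edgeR or DESeq2 and 1 by the likelihood ratio test. The part of these cells in the *Nrg1* result was not tested. In these bulk samples fewer cells of a type and less RNA per cell cannot be told apart.

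The marker lists of other cell types showed varied patterns. The 5 melanocyte markers (most abundant *Dct*) summed to 2.52 and 1.07 CPM in WT unwounded, 9.55 and 5.51 CPM in WT wounded, 2.15 CPM in the cKO-labelled unwounded library and 6.18 and 7.07 CPM in the cKO-labelled wounded libraries. The 6 fibroblast markers (most abundant *Col3a1*) summed, in the same order, to 28.7 and 14.5, 19.6 and 46.6, 11.04, and 25.6 and 37.8 CPM. The 8 leukocyte markers (most abundant *Cd74*) summed to 8.33 and 16.1, 15.0 and 36.6, 10.2, and 16.6 and 19.6 CPM, with *Cd3e* at 0 in all 7 libraries. Of these 3 lists the melanocyte sum alone was higher in every wounded library than in every unwounded one.

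The 6 mural and smooth muscle markers (most abundant *Cspg4*, with *Rgs5* at 0 apart from a single count) summed to 132 and 124 CPM in WT unwounded, 156 and 86.8 CPM in WT wounded, 156 CPM in the cKO-labelled unwounded library and 73.7 and 69.1 CPM in the cKO-labelled wounded libraries. The 5 Schwann cell markers (most abundant *Mbp*, with *Sox10* at 0 in 5 libraries) summed to 56.9 and 38.2, 31.9 and 39.4, 54.7, and 52.2 and 46.6 CPM in the same order. *Cspg4* made up most of each mural sum, at 130.5 and 120.5 CPM in WT unwounded and 125 and 75.95 CPM in WT wounded. Of the other mural markers, *Acta2* stood at 0.581 and 2.32 CPM in WT unwounded and 16.5 and 9.99 CPM in WT wounded. *Tagln* stood at 0.581 and 0.774 CPM, and at 11.9 and 0.843 CPM, in the same 2 groups. In WT wounded against WT unwounded 0 genes of these 5 lists passed by edgeR and by DESeq2, while 1 mural and 1 leukocyte marker passed by the likelihood ratio test. At an unadjusted p under 0.05 there were 2 of 4 melanocyte, 1 of 5 fibroblast, 2 of 6 leukocyte, 2 of 4 mural and 0 of 2 Schwann markers tested, all higher in the wounded libraries. Between the wounded groups 0 genes of these and the endothelial list passed by edgeR, DESeq2 or the likelihood ratio test, and at an unadjusted p under 0.05, 3 of 4 mural markers were lower and 1 of 2 Schwann markers was higher with the cKO label. Averaged over the genotypes, by edgeR the fibroblast marker *Col3a1* rose (adjusted p = 0.0268), and of the mural markers *Acta2* rose (0.0275) and *Cspg4* fell (0.0452), while 0 leukocyte, melanocyte and Schwann markers passed. Within the cKO label *Col3a1* rose (edgeR, adjusted p = 0.0311) and *Cspg4* fell (0.0360). By DESeq2 and by the likelihood ratio test the average added 1 leukocyte and 1 melanocyte marker, and the latter test added 1 fibroblast marker there and 1 mural marker within the cKO label, all higher in wounded libraries. The part of these cells in the *Nrg1* values was not tested.

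Keratinocyte markers were high in every library. The 6 basal markers, led by *Krt14*, summed to 30890 to 44750 CPM. The 5 suprabasal markers (most abundant *Krt1*) summed to 5843 and 6519 CPM in WT unwounded, 3343 and 4963 CPM in WT wounded, 8774 CPM in the cKO-labelled unwounded library and 6193 and 7806 CPM in the cKO-labelled wounded libraries. The 6 hair follicle markers (most abundant *Krt15*) summed to 5751 and 5105, 4485 and 3605, 6659, and 3638 and 4495 CPM in the same order. At an unadjusted p under 0.05 in WT wounded against WT unwounded, 3 of 5 suprabasal and 4 of 6 hair follicle markers were lower by edgeR, with 0 of either list past adjustment by edgeR, DESeq2 or the likelihood ratio test. With the cKO label 3 of 5 suprabasal markers were higher between the wounded groups at an unadjusted p under 0.05, 0 passed by edgeR and 1 passed by DESeq2. In 2 of the 3 comparisons with the cKO-labelled unwounded library hair follicle markers passed by edgeR. Within the cKO label 3 of 6 fell, *Krt15* (adjusted p = 0.00655), *Lgr5* (0.0217) and *Cd34* (0.0336), and averaged over the genotypes 4 of 6 fell, *Krt15* (0.00393), *Cd34* (0.0148), *Lgr5* (0.0306) and *Lhx2* (0.0311). DESeq2 and the likelihood ratio test gave the same counts, while by edgeR 0 suprabasal and 0 basal markers passed in either, and 1 suprabasal marker was lower by DESeq2 in each and by the likelihood ratio test in the average. For the difference between genotypes in the wound response 0 genes of the cell marker lists passed by edgeR, and 1 fibroblast marker passed by DESeq2 and by the likelihood ratio test. These markers were named after their values were seen. The part of the make-up of the keratinocytes in the values of the 10 genes was not tested.

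*Areg*, which encodes amphiregulin, a ligand of EGFR, was read at 75.7 and 152 CPM in WT unwounded, 112 and 168 CPM in WT wounded, 99.0 CPM in the cKO-labelled unwounded library and 96.6 and 82.4 CPM in the cKO-labelled wounded libraries. Both cKO-labelled wounded libraries lay below both WT wounded libraries but inside the range of the WT unwounded ones. The group means were 114 ± 53.6 CPM in WT unwounded, 140 ± 39.5 CPM in WT wounded and 89.5 ± 10.04 CPM in cKO-labelled wounded libraries (SD, *n* = 2 each). Between the wounded groups the log2 fold change was -0.62 (standard error 0.27, 95% interval -1.19 to -0.05, edgeR, unadjusted p = 0.0359, adjusted p = 1). Without a single library it lay between -0.88 and -0.28. In WT wounded against WT unwounded it was 0.33 with a 95% interval from -0.24 to 0.89, and its sign depended on single libraries, since it was -0.08 without WT unwounded replicate 1 and -0.02 without WT wounded replicate 2.

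*Epgn* encodes epigen, another ligand of EGFR. Its level was 314 and 315 CPM in WT unwounded, 405 and 324 CPM in WT wounded, 329 CPM in the cKO-labelled unwounded library and 294 and 265 CPM in the cKO-labelled wounded libraries. The wounded libraries were the higher ones within WT and the lower ones within the cKO label. Group means were 315 ± 0.393 CPM in WT unwounded, 365 ± 57.2 CPM in WT wounded and 279 ± 20.7 CPM in cKO-labelled wounded libraries (SD, *n* = 2 each). By edgeR the log2 fold change between the wounded groups was -0.36 (standard error 0.17, 95% interval -0.71 to -0.01, unadjusted p = 0.0452, adjusted p = 1), and in WT wounded against WT unwounded it was 0.24 (95% interval -0.11 to 0.59). Without a single library the former lay between -0.50 and -0.20 and the latter between 0.071 and 0.37.

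*Hbegf* encodes heparin-binding EGF-like growth factor, which binds EGFR and ERBB4. Its level was 171 and 210 CPM in WT unwounded, 165 and 155 CPM in WT wounded, 224 CPM in the cKO-labelled unwounded library and 179 and 190 CPM in the cKO-labelled wounded libraries. Within WT both wounded libraries lay below both unwounded ones, and the cKO-labelled wounded libraries lay within the range of WT unwounded. The log2 fold change was -0.22 in WT wounded against WT unwounded (95% interval -0.57 to 0.13, edgeR, adjusted p = 0.987) and 0.22 between the wounded groups (95% interval -0.13 to 0.57). Leaving out a library moved the former to between -0.35 and -0.077 and the latter to between 0.20 and 0.26.

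*Tgfa*, which encodes transforming growth factor alpha, was read at 90.6 and 44.2 CPM in WT unwounded, 65.9 and 68.4 CPM in WT wounded, 33.3 CPM in the cKO-labelled unwounded library and 65.9 and 36.1 CPM in the cKO-labelled wounded libraries. The WT unwounded replicates lay on either side of both WT wounded ones, so the spread within a group was as wide as any difference between groups. Its log2 fold change was 0.02 in WT wounded against WT unwounded (95% interval -0.65 to 0.68) and -0.36 between the wounded groups (95% interval -1.03 to 0.30). Both changed sign when a library was left out, the former lying between -0.42 and 0.64 and the latter between -0.90 and 0.034.

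*Ereg* and *Btc*, which encode epiregulin and betacellulin, were the ligands with few counts beside *Nrg1*. *Ereg* ranged from 6.22 CPM, in the cKO-labelled unwounded library, to 13.1 CPM over the 7 libraries. Its groups of 2 libraries overlapped, with log2 fold changes of 0.27 in WT wounded against WT unwounded (95% interval -0.63 to 1.17) and 0.03 between the wounded groups (95% interval -0.87 to 0.93), which became -0.27 to 0.66 and -0.36 to 0.57 when a library was left out. *Btc* was counted 28 and 52 times in WT unwounded, 10 and 7 times in WT wounded, 13 times in the cKO-labelled unwounded library and 6 and 16 times in the cKO-labelled wounded libraries. Both WT unwounded libraries lay above all 5 others. The log2 fold change of *Btc* in WT wounded against WT unwounded was -2.17 with a 95% interval from -4.97 to 0.63 (edgeR, adjusted p = 0.984), so a difference in either direction is within the spread at this depth. In the exact permutation test of the 4 wounded against the 3 unwounded libraries *Btc* had the smallest p of the 10 genes, 0.0857, and those of the 8 genes other than *Btc* and *Nrg1* lay between 0.200 and 0.914.

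Among the receptors, *Egfr* was read at 282 and 283 CPM in WT unwounded, 321 and 265 CPM in WT wounded, 303 CPM in the cKO-labelled unwounded library and 242 and 264 CPM in the cKO-labelled wounded libraries. Its WT wounded replicates lay on either side of the unwounded ones, and both cKO-labelled wounded libraries lay below all 5 others. The log2 fold change was 0.08 in WT wounded against WT unwounded (95% interval -0.26 to 0.42) and -0.19 between the wounded groups (95% interval -0.53 to 0.15). When a library was left out the former lay between -0.064 and 0.20, on either side of 0, and the latter between -0.31 and -0.051.

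*Erbb2* stood at 183 and 191 CPM in WT unwounded, 164 and 160 CPM in WT wounded, 196 CPM in the cKO-labelled unwounded library and 159 and 218 CPM in the cKO-labelled wounded libraries. The WT wounded libraries were below the WT unwounded ones, while the cKO-labelled wounded replicates were the lowest and the highest of all 7. *Erbb3* ranged from 214 to 267 CPM, and its groups of 2 libraries overlapped. Log2 fold changes of *Erbb2* were -0.18 (95% interval -0.55 to 0.18) in WT wounded against WT unwounded and 0.23 (95% interval -0.13 to 0.60) between the wounded groups, where it lay between 0.030 and 0.43 when a library was left out. Those of *Erbb3* were -0.13 (95% interval -0.50 to 0.23) and 0.17 (95% interval -0.19 to 0.54), and -0.26 to 0.001 and -0.003 to 0.34 when a library was left out. Over the 3 receptors and these 2 comparisons the 95% intervals reached from -0.55 to 0.60 on the log2 scale.

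Across the 7 libraries the log2 CPM of the genes was correlated in 45 pairs, given as a description over libraries that share groups and depth. *Nrg1* ran opposite to *Erbb2* (Pearson r = -0.891) and to *Hbegf* (r = -0.879), and *Epgn* ran with *Egfr* (r = 0.792). The genes most like each member were sought among the 14044 other tested genes by the same measure over the 7 libraries. They hold the highest of 14044 values over 7 libraries, so an r this high can come from the search alone. None of these correlations was tested. For *Nrg1* they were *Mtbp* (r = 0.972), *Mycbp* (0.970) and *Flna* (0.969), for *Areg* *Rpa2* (0.995), *Ccdc23* (0.968) and *Bcl2a1b* (0.967), and for *Epgn* *BC030336* (0.985), *Zak* (0.968) and *Kif18a* (0.959). For *Hbegf* they were *Polm* (0.987), *Casp14* (0.967) and *Tmem110* (0.962), for *Tgfa* *Sprr2f* (0.980), *Ttc37* (0.979) and *D2Wsu81e* (0.973), for *Ereg* *B4galt1* (0.975), *Myo10* (0.970) and *Pafah1b3* (0.966), and for *Btc* *Slc14a1* (0.981), *Arhgef19* (0.977) and *4930455H04Rik* (0.975). For *Egfr* they were *Them6* (0.981), *Ptprk* (0.969) and *Pid1* (0.969), for *Erbb2* *Tnfrsf18* (0.968), *Tmem255a* (0.968) and *Ak3* (0.966), and for *Erbb3* *Slco4a1* (0.973), *Bmp2* (0.970) and *Klf5* (0.962). None of the 10 genes was among the 3 most like another.

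The pathway around the family was read through 47 genes in 5 lists, of which 45 were tested. Of these 45 genes, 0 rose and 0 fell by edgeR in WT wounded against WT unwounded, with 1 higher and 0 lower at an unadjusted p under 0.05 (0.0285% of all genes past adjustment and 4.84% unadjusted). The counts between the wounded groups were the same (0% and 4.04% of all genes). Log2 fold changes were positive for 24 and negative for 21 genes in the former and positive for 19 and negative for 26 in the latter. By DESeq2 and the likelihood ratio test 0 of the 45 passed in either comparison.

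The first list held the other ligands and the fourth receptor, *Egf*, *Nrg2*, *Nrg3*, *Nrg4* and *Erbb4*. *Nrg3* had 0 counts in every library, which allows up to 0.178 to 0.222 CPM, and *Erbb4* had 4 counts in the cKO-labelled unwounded library and 0 in the other 6, so the receptor that *Nrg1* can use beside ERBB3 was close to the limit of detection in these cells. *Egf* was counted 4 and 0 times in WT unwounded, 3 and 1 times in WT wounded, 4 times in the cKO-labelled unwounded library and 30 and 14 times in the cKO-labelled wounded libraries. The difference between the wounded groups, 3.54 on the log2 scale, had a standard error of 2.19 (edgeR, unadjusted p = 0.126). *Nrg4* had the smallest p of its list in WT wounded against WT unwounded, at -0.87 on the log2 scale (standard error 0.53, edgeR, unadjusted p = 0.122).

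The median log2 fold change in WT wounded against WT unwounded, where that of all genes tested was 0.00, was -0.03 for the 3 other ligands tested (*Egf*, *Nrg2* and *Nrg4*), -0.06 for the 4 genes of ligand shedding, 0.02 for the 16 adaptors and RAS to MAP kinase genes, 0.08 for the 13 negative regulators and 0.11 for the 9 genes that ERK signalling induces. Between the wounded groups, where that of all genes was -0.01, it was 0.51, 0.09, -0.07, -0.02 and -0.19 in the same order. The genes with the smallest p in the last 4 lists were *Rhbdf2* (log2 fold change -0.25), *Map2k1* (0.55), *Lrig1* (-0.33) and *Plaur* (0.89) in the former comparison, with *Map2k1* alone at an unadjusted p under 0.05 (edgeR, unadjusted p = 0.0331, adjusted p = 0.956). In the latter comparison *Rhbdf1* (0.30), *Lrig3* (0.29) and *Fos* (0.37) had the smallest p among the genes of shedding, the negative regulators and the genes that ERK signalling induces, with *Fos* under 0.05 (edgeR, unadjusted p = 0.0191, adjusted p = 1).

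*Map2k1*, which encodes the kinase MEK1, was read at 40.8 and 45.0 CPM in WT unwounded, 52.0 and 71.2 CPM in WT wounded, 35.3 CPM in the cKO-labelled unwounded library and 62.7 and 44.8 CPM in the cKO-labelled wounded libraries. *Fos*, an immediate early gene, was read at 1594 and 1625, 1436 and 1681, 3287, and 2041 and 1932 CPM in the same order, so its highest level was that of the cKO-labelled unwounded library. *Egr1*, another immediate early gene, likewise stood at 3271 CPM there and at 1508 to 1862 CPM in the other 6 libraries.

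In the cKO-labelled wounded libraries against the cKO-labelled unwounded library, 1 of the 45 genes passed by edgeR, beside 0.947% of all genes. This was *Egr1*, which fell by 0.89 on the log2 scale (standard error 0.17, adjusted p = 0.0222), and 0 rose. At an unadjusted p under 0.05 there were 1 higher and 7 lower, beside 9.32% of all genes, DESeq2 passed 3 and the likelihood ratio test 2, and the count was 0 without replicate 2 of the cKO-labelled wounded libraries, where the adjusted p of *Egr1* was 0.0700, and 3 without either WT wounded library. The adjusted p of *Egr1* over its alternatives lay between 0.000218 and 0.0700. Averaged over the genotypes 0 of the 45 passed by edgeR, beside 0.890% of all genes (2 higher and 8 lower unadjusted, beside 8.91%, 2 by DESeq2 and 2 by the likelihood ratio test), and for the difference between genotypes 0 passed, beside 0.185% (1 higher and 2 lower unadjusted, beside 6.77%, 1 by DESeq2 and 1 by the likelihood ratio test). The averaged count was 2 without WT wounded replicate 1, and that of the difference was 1 without WT wounded replicate 2 and 1 without replicate 1 of the cKO-labelled wounded libraries. These 3 comparisons rest on the library that differs in sex-linked RNA, and the part of sex in its levels of *Fos* and *Egr1* was not tested.

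The genes lie on 6 chromosomes of the mm10 assembly. *Epgn*, *Ereg*, *Areg* and *Btc* are neighbours at chr5:91027464-91402994, the first 3 on the plus strand and *Btc* on the minus strand, and the Pearson r of their log2 CPM over the 7 libraries lay between -0.549 and 0.297. *Tgfa* is at chr6:86195223-86275719, *Nrg1* at chr8:31814551-32884029 on the minus strand, *Erbb3* at chr10:128567523-128589652 on the minus strand, *Egfr* at chr11:16752203-16918158, *Erbb2* at chr11:98412470-98437716 and *Hbegf* at chr18:36504927-36515805 on the minus strand. *Nrg1* spans 1069 kb and *Egfr* 166 kb, against a median of 17.4 kb for all protein-coding genes, so more peaks can lie in these genes than in others.

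For ATAC-seq there was 1 list of broad peaks per condition, without replicates, so peaks were counted and no difference was tested. The lists held 10769 peaks in WT unwounded, 36872 in WT wounded, 29364 in cKO-labelled unwounded and 22474 in cKO-labelled wounded keratinocytes, covering 4.42, 18.01, 13.5 and 10.04 Mb. The study gives standard conditions for its peak calling. The name of the cKO-labelled wounded list lacks a tag that the other 3 carry, and what that means for its settings is not known here. In or within 5 kb of the 10 genes lay 11, 46, 35 and 26 peaks in that order. These counts follow the length of the lists. When each list was held to its 10769 peaks of highest fold enrichment, the counts were 11, 12, 15 and 11.

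A peak lay in or within 5 kb of 6 of the 10 genes in WT unwounded, beside 34.8% of 21938 protein-coding genes, and of 10 of 10 in WT wounded, beside 62.3%. It did so for 10 of 10 in the cKO-labelled unwounded list, beside 58.5%, and for 9 of 10 in the cKO-labelled wounded list, beside 49.2%. These shares cover all protein-coding genes whatever their RNA level, while all 10 genes passed the filter on low counts. The 10 genes also have a longer median span, 23.7 kb against 17.4 kb. The part of level and span in these counts was not tested. There were 4 genes with a peak in WT wounded and none in WT unwounded (*Ereg*, *Areg*, *Erbb2* and *Hbegf*), beside 27.7% of protein-coding genes, and 1 with a peak in WT wounded and none in the cKO-labelled wounded list (*Erbb2*), beside 14.0%. With lists of equal length the picture for single genes was thinner. *Egfr* had 4, 4, 5 and 4 peaks in the order of the lists, and *Nrg1* 3, 2, 3 and 2, where the full lists gave 4, 17, 11 and 7 for *Egfr* and 3, 12, 7 and 9 for *Nrg1*.

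Merged over the lists, the peaks formed 51 sites. Of these, 11 were in all 4 lists (22.2% of the 42952 sites formed by all peaks), 11 in all but WT unwounded (19.9%), 14 in WT wounded alone (22.9%), 8 in WT wounded and the cKO-labelled unwounded list alone (13.9%), 3 in the latter alone (8.82%), 2 in both wounded lists alone (4.64%) and 2 in both cKO-labelled lists alone (1.38%). With lists of equal length there were 22 sites, of which 6 were in all 4 lists (25.3% of all such sites), 3 in WT wounded alone (10.1%) and 6 in the cKO-labelled unwounded list alone (8.15%). Of the sites 33 were intronic and 9 lay within 500 bases of a start site of their own gene. *Egfr* held 17 sites, 16 of them intronic, over 127 kb, and *Nrg1* held 13, 12 of them intronic, over 289 kb of its 1069 kb (chr8:32004437-32293697).

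Start sites differed between the genes. *Btc* and *Egfr* had a peak at the start in all 4 lists, and *Areg*, *Epgn* and *Erbb3* in all but WT unwounded. *Tgfa* had a peak there in WT wounded and in the cKO-labelled unwounded list, *Ereg* in WT wounded alone and *Hbegf* in the cKO-labelled lists alone. *Erbb2*, although read at 159 to 218 CPM, had none in any list, and the peak downstream of it lies at the start of *Mien1*. The site downstream of *Erbb3* (chr10:128565594-128566550), which is in all 4 lists and holds its only WT unwounded peak, lies at the start of *Pa2g4*. *Nrg1* had no peak at its outermost start, but of 7 annotated start sites 2 had a peak in WT unwounded and 4 in each other list, all at chr8:32008521-32009880. The WT unwounded peak there (chr8:32008521-32008940) does not overlap the WT wounded peak (chr8:32009349-32009880) or the cKO-labelled wounded peak (chr8:32009483-32009728), and the cKO-labelled unwounded peak (chr8:32008734-32009873) joins them. Their fold enrichments over the local background, 3.47, 5.15, 4.95 and 3.97 in the order named, are therefore not values of a single place.

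The site with the highest fold enrichment in every list but WT wounded was an intron of *Egfr* (chr11:16800452-16801051), at 5.96 in WT unwounded, 6.07 in WT wounded, 6.85 in the cKO-labelled unwounded list and 6.65 in the cKO-labelled wounded list, with -log10 q between 8.79 and 14.1. An intron of *Tgfa* (chr6:86219351-86219930) had 3.57, 6.75, 5.32 and 5.47 in the same order, and a site downstream of *Epgn* (chr5:91038114-91038981) had 4.32, 6.55, 4.76 and 5.54, so both lay above the *Egfr* site in WT wounded. The strongest intronic site of *Nrg1* (chr8:32264704-32265636) had 4.98, 5.61, 5.97 and 5.24. Each of these was in all 4 lists, with its lowest enrichment in the shortest list, that of WT unwounded.

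**Figure D3:**
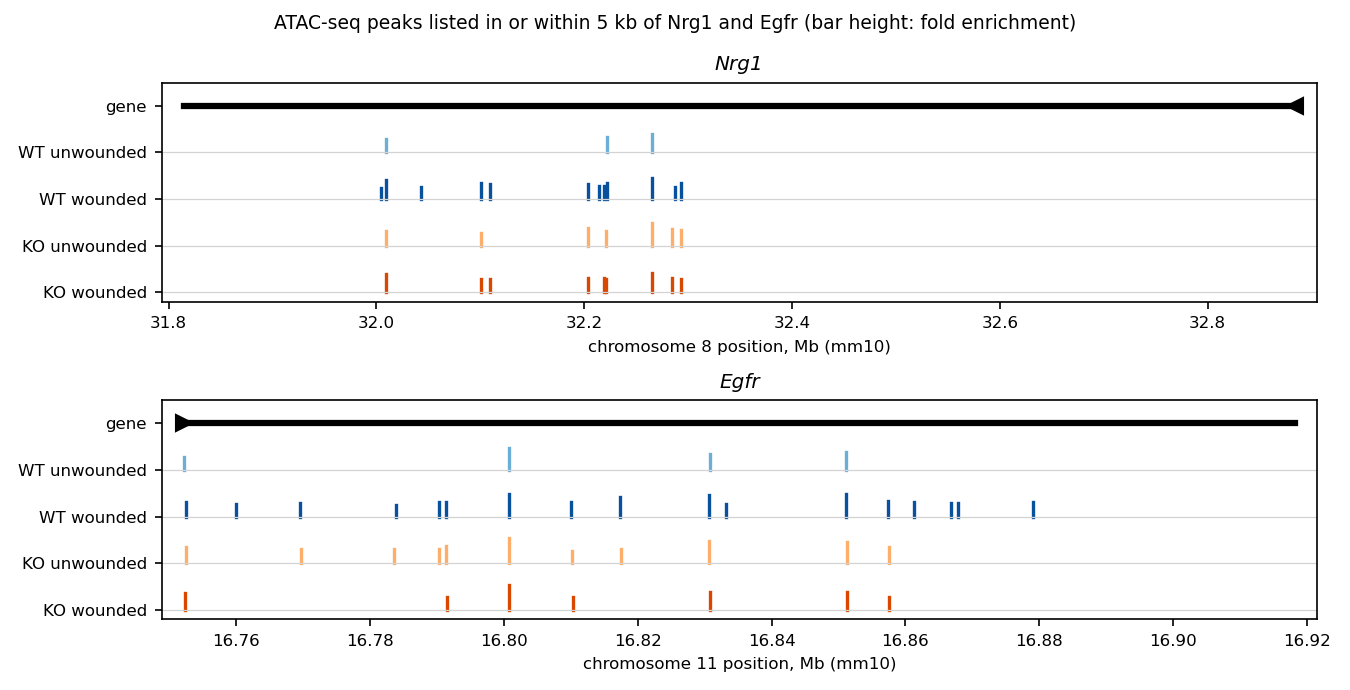
ATAC-seq peaks along *Nrg1* and *Egfr* (horizontal axis, position in Mb of mm10), with a line for each peak list, bar heights proportional to fold enrichment, and the gene body with its direction above (KO, labelled *Grhl3*-cKO). In *Nrg1* the peaks lie within chr8:32004437-32293697, and in *Egfr* an intronic peak at chr11:16800452-16801051 is present in all 4 lists.

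Short motifs were searched on both strands in the central 300 bases of each peak and in promoter windows from RefSeq (GRCm38.p6), which run from 250 bases before to 50 after a start. The motifs were AACNNGTT, the core of sites bound by Grainyhead-like factors such as GRHL3, and TGANTCA, the core of AP-1 sites, and they do not overlap each other in the sequences shown. Promoter windows matched for 6 of the 10 genes (*Areg*, *Tgfa*, *Btc*, *Epgn*, *Egfr* and *Erbb2*), and those of *Ereg*, *Nrg1*, *Erbb3* and *Hbegf* were missing. Of the 6 windows 0 held either motif, where 4.20% of 32851 windows held the Grainyhead-like core and 7.81% the AP-1 core.

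In the peaks near the 10 genes the Grainyhead-like core was found in 0 of 11 in WT unwounded (5.55% of all peaks of that list), 4 of 46 in WT wounded (6.56%), 1 of 35 in the cKO-labelled unwounded list (6.22%) and 0 of 26 in the cKO-labelled wounded list (6.28%). The AP-1 core was found in 5 of 11 (24.4% of all peaks), 19 of 46 (27.7%), 14 of 35 (27.3%) and 12 of 26 (27.8%) in the same order. A match is a description of the letters and not of binding.

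The merged sites, whose centre can differ from that of a peak, held the Grainyhead-like core in the central 300 bases at 3 of 51, and these 3 are shown so that its place beside the AP-1 core can be read, with capitals for both motifs. They were 2 intronic sites of *Nrg1*, in WT wounded alone, and 1 of *Erbb2*, in WT wounded and the cKO-labelled unwounded list. Over the whole length of the sites 5 of 51 held that core, and the 2 not shown hold it outside the central 300 bases. These are intronic sites of *Nrg1*, chr8:32218805-32219336 in both wounded lists and chr8:32264704-32265636 in all 4 lists. The windows shown, from the mm10 genome, are chr8:32004379-32004678 (minus strand, Grainyhead-like core alone), chr8:32043053-32043352 (minus strand, AP-1 core and then Grainyhead-like core) and chr11:98419002-98419301 (plus strand, AP-1 core and then Grainyhead-like core).
*Nrg1* chr8:32004379-32004678: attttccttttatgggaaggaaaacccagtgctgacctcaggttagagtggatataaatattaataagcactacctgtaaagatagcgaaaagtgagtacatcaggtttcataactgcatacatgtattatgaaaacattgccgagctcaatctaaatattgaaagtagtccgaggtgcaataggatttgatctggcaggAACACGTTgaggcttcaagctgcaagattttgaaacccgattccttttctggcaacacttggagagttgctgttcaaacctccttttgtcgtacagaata
*Nrg1* chr8:32043053-32043352: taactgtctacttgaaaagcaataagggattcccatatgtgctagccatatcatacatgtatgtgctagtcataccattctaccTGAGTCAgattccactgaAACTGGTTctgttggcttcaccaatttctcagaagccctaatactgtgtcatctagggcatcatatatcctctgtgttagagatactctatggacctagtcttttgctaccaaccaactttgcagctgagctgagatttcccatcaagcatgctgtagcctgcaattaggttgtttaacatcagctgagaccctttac
*Erbb2* chr11:98419002-98419301: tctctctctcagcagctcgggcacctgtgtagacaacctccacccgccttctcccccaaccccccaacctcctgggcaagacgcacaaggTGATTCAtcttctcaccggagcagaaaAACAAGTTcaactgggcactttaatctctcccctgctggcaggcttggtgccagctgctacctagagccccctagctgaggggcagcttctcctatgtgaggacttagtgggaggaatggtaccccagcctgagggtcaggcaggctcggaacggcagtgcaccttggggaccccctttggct

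The central 300 bases of an intronic site of *Egfr* and of *Tgfa*, each in all 4 lists at high fold enrichment, are shown beside them. They were picked since they hold the AP-1 core, in capitals, and no Grainyhead-like core. Among other sites in all 4 lists, *Egfr* introns chr11:16830358-16831021 and chr11:16850676-16851514 held the AP-1 core in the central 300 bases. *Nrg1* introns chr8:32221193-32221787 and chr8:32264704-32265636 and the site downstream of *Epgn* (chr5:91038114-91038981) did not. The 2 windows shown are on the plus strand of mm10, at chr11:16800602-16800901 with the AP-1 core at 1 place and at chr6:86219491-86219790 with it at 2 places.
*Egfr* chr11:16800602-16800901: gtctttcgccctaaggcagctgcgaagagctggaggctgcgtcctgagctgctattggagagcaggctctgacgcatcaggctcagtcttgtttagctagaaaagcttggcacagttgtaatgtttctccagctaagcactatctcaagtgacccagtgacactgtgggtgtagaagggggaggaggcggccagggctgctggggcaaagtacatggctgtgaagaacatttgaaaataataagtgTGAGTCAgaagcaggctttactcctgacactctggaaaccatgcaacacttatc
*Tgfa* chr6:86219491-86219790: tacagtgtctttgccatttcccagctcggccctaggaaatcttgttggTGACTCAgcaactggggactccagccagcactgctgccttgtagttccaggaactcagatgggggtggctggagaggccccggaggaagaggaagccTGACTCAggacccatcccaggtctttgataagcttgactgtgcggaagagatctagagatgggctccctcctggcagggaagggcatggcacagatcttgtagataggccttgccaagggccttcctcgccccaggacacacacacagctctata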

How the data were processed

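The 7 RNA-seq tables the authors deposited hold raw counts by gene symbol, and the tool that counted them is not named in the labels. The study names FastQC, Kallisto, EdgeR and mm10 for RNA-seq, and Trimmomatic, bowtie2 and MACS2 for ATAC-seq. The deposited peak lists give each peak a fold enrichment, which is a ratio over the local background. The authors also deposited its −log10 q and −log10 p, and the deposited score of each peak was left unused. For MACS2 the study gives standard conditions. The name of 1 list, cKO-labelled wounded, lacks a tag that the other 3 carry, and what that means for its settings is not known here.

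Summary entries for reads without a gene were removed first. Counts were scaled by TMM, filtered by filterByExpr and fitted in edgeR as 4 group means. CPM uses library totals, and log2 CPM a prior count of 2. Gene spans, exons and start sites came from GENCODE vM21 on mm10. Peaks were assigned by an overlap of at least 1 base with the gene extended by 5 kb, merged over the lists into sites, and checked with bedtools. Motif windows were read from the mm10 genome. The fit was tested on simulated data. Protein sequences were not analysed here.

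The members and lists were chosen with earlier results of these data known. Genes named are the members, the targeted gene, the 3 genes most correlated with each member, pathway genes that passed or had the smallest p of their list in the WT wound comparison or between the wounded groups, and the leading genes of each marker list. Marker genes that passed were named after their values were seen. Alternatives were RLE and upper-quartile scaling, DESeq2, the likelihood ratio test, a minimum of 10 counts per library, no filter, an additive model, a replicate block, a fit of only the 4 libraries compared, and leaving out each library. For peaks they were equal list lengths, a fold enrichment of 4 or more, a q of 0.01 or less, the gene body only, a distance of 10 kb and other overlaps.

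Counts were fitted with edgeR 4.0.16 (limma 3.58.1) and DESeq2 1.42.0 in R 4.3.3. Peaks and sequences were read with bedtools 2.31.1, pysam 0.24.0 and pandas 2.3.3, with numpy 2.4.6 and scipy 1.17.1, in Python 3.11.15, and drawn with matplotlib 3.10.9.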

Additional observations from a re-analysis of the deposited data

Results flagged for a closer look

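The wound response of *Epgn* had opposite signs in the genotypes. Both WT wounded libraries lay above both WT unwounded ones, and both cKO-labelled wounded libraries lay below the cKO-labelled unwounded library. The difference between the responses was -0.48 on the log2 scale (standard error 0.26, 95% interval -1.03 to 0.07, edgeR, unadjusted p = 0.0822, adjusted p = 0.788), so it did not pass the test. Without a single library it lay between -0.61 and -0.31. It rests on 1 cKO-labelled unwounded library, which also differs in sex-linked RNA.

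The number of peaks near the 10 genes also moved in opposite directions. The wounded list held 35 more than the unwounded list in WT, and with the cKO label the difference of wounded minus unwounded was -9. With 1 list per condition this difference was not tested, and the lists differ in length in the same directions. With lists of equal length the counts were 11 unwounded and 12 wounded in WT, and 15 unwounded and 11 wounded with the cKO label.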

How the results depend on the processing

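Leaving out each library in turn, 290 log2 fold changes of the 10 genes kept their sign and side of the threshold, 29 changed sign and 1 newly passed. Under the other alternatives 364 kept both, 6 changed sign and 4 newly passed, and the cause was not tested. Without the lone cKO-labelled unwounded library the comparisons that use it give no value.

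Averaged over the genotypes, the near-zero value of *Epgn* turned to 0.000 with RLE and with DESeq2, 0.014 with upper-quartile scaling and 0.041 in an additive model. In cKO-labelled wounded against unwounded libraries, *Erbb3* turned to 0.009 with upper-quartile scaling and *Areg* to 0.099 with the replicate block. RLE, upper-quartile scaling and DESeq2 shifted the median of all genes by 0.033 or less.

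Leave-one-out ranges that crossed 0 were, in WT wounded against WT unwounded, -0.082 to 0.90 for *Areg*, -0.27 to 0.66 for *Ereg*, -0.42 to 0.64 for *Tgfa*, -0.064 to 0.20 for *Egfr* and -0.26 to 0.001 for *Erbb3*. Between the wounded groups they were -0.36 to 0.57 for *Ereg*, -0.90 to 0.034 for *Tgfa*, -0.35 to 1.07 for *Btc* and -0.003 to 0.34 for *Erbb3*. Within the cKO label they were -1.24 to 0.18 for *Btc*, -0.28 to 0.11 for *Erbb2* and -0.20 to 0.15 for *Erbb3*. For the average they were -0.12 to 0.37 for *Areg*, -0.086 to 0.065 for *Epgn* and -0.17 to 0.006 for *Erbb3*. For the difference between genotypes they were -0.88 to 0.24 for *Nrg1*, -0.22 to 0.056 for *Hbegf*, -0.020 to 1.04 for *Tgfa*, -0.097 to 0.29 for *Erbb2* and -0.073 to 0.28 for *Erbb3*.

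The number of the 10 genes past the threshold became 1 with no filter in WT wounded against WT unwounded, and for the average became 1 with no filter, DESeq2 and the likelihood ratio test, and 0 to 1 leave-one-out. The number of all genes past it moved more. In WT wounded against WT unwounded (4 genes) it was 24 by DESeq2, 49 by the likelihood ratio test, 96 with no filter, 0 with at least 10 counts in every library, 0 with only the 4 libraries compared and 0 to 29 leave-one-out. Between the wounded groups (0 genes by edgeR, 567 at an unadjusted p under 0.05) it was 3 by DESeq2, 1 by the likelihood ratio test, 51 with no filter and 0 to 21 leave-one-out. Within the cKO label (133 genes) it was 252, 252 and 436 in that order, 28 with at least 10 counts, 213 with the replicate block and 33 to 244 leave-one-out. For the average (125 genes) it was 223, 283 and 415, 44 with at least 10 counts, 199 with the replicate block, 5 in an additive model and 37 to 255 leave-one-out. For the difference between genotypes (26 genes) it was 85, 98 and 203, 1 with at least 10 counts, 78 with the replicate block and 11 to 88 leave-one-out.

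Of the 45 pathway genes, within the cKO label 3 passed by DESeq2, 2 by the likelihood ratio test, 4 with no filter, 0 with at least 10 counts, 3 with the replicate block and 0 to 3 leave-one-out. For the average it was 2, 2, 4, 1 with the replicate block and 0 to 2 leave-one-out, and for the difference 1, 1, 1, 1 with the replicate block and 0 to 1 leave-one-out. Replicate numbers are shared between groups, but nothing says that they mark the same animal. The cKO-labelled unwounded library is number 2 in its title, as used in the replicate block, and number 1 in the name of its table, and its *Xist* count (14854) was far from that of cKO-labelled wounded replicate 2 (25), so the values with the replicate block rest on an uncertain pairing. Over genes, deviations from the group mean correlated at 0.154 between the WT groups and -0.039 between the wounded groups.

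The numbers of peaks near the 10 genes became 7 in WT unwounded, 23 in WT wounded, 18 in the cKO-labelled unwounded list and 13 in the cKO-labelled wounded list at a fold enrichment of at least 4. With lists of equal length they became 12 in WT wounded, and 15 and 11 with the cKO label. The number of genes with a peak stayed within 1.5 times its value in all 28 alternatives.

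*Btc*, counted 6 to 52 times, has wide intervals at this depth. Every group has 1 or 2 libraries, and each peak list is single, so the size of most differences given here is known only within the intervals printed.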
